A study of Mus musculus with 14 samples.

Results

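The genes described here are named for proteins of the cytosolic ribosome. They were chosen by name: a symbol of the form Rpl or Rps followed by a number, with an optional a, x, y or l, or one of Rplp0, Rplp1, Rplp2 and Rpsa, without pseudogene names and without the Rps6k kinases. A gene also had to reach 1 FPKM (fragments scaled to exon length and library size) in at least 2 of 14 libraries. The name rule matched 84 of 23427 genes, and 80 of them reached that level, 48 named for the large subunit and 32 for the small subunit. The 4 that did not were Rpl10l, Rpl39l, Rpl3l and Rps4y2, whose highest value in any library was 0.0575 FPKM. All 80 genes were at 1 FPKM or more in all 14 libraries. A symbol and a level do not show that each protein is part of the ribosome.

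Libraries for mRNA-seq were made from primary mouse oligodendrocyte precursor cells (OPCs) and from the oligodendrocytes (OLs) that they form in culture. All groups came from C57BL/6J cortex pooled from 3 pups of 1 week of age, with cells captured on dishes coated with an antibody against PDGFRα, so PDGFRα-positive cells were selected in every group. The 7 groups held 2 libraries each. Day0 was the start of differentiation, brought about by withdrawal of PDGF-AA and addition of the thyroid hormone T3, and the other 6 groups were taken at Day3. At Day3 there were 4 control groups: non-treated, mock, and the non-targeting NC siRNA #1 and NC siRNA #2. In siSbp2l the siRNA was directed at Secisbp2l, the gene for the RNA-binding protein Sbp2l, and in siPdgfra at Pdgfra. Each target is represented by 1 group of libraries, so an effect of the target and an effect of that siRNA sequence on other mRNAs cannot be told apart. The methods call the 2 libraries of a group independent replicates, without naming separate animals, and p-values measure the spread between these libraries only.

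A cytosolic ribosome joins a small subunit, which reads the mRNA, to a large subunit, which forms peptide bonds. Each subunit needs about equal numbers of its proteins, and the genes for them are usually expressed together and strongly in growing cells. Their mRNAs typically begin with a C followed by a stretch of pyrimidines (a 5′ terminal oligopyrimidine, or 5′ TOP, start), through which mTOR signalling and the binding protein LARP1 set their translation and stability.

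RefSeq starts (GRCm38.p6) within 1000 bases of the start in the deposited gene model were found for 59 of the 80 genes. A window of 30 bases, 10 before the RefSeq start and 20 from it on, was read on the gene's strand. An unbroken run of at least 8 C or T bases stood in 22 of the 59 windows (37.3%), against 11.1% of the windows of all 17120 genes matched, and the median of the longest run was 6 bases against 4 over the expressed genes. Rps6 rose by 0.55 on the log2 scale in siSbp2l. The windows below are those of 3 genes that rose and 3 that fell there, with the longest run of C and T in capitals.
Rps6, chr4:86857348-86857377, minus strand: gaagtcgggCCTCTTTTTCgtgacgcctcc
Rpl28, chr7:4792955-4792984, plus strand: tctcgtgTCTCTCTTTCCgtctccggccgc
Rps12, chr10:23787190-23787219, minus strand: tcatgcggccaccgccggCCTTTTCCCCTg
Rpl15, chr14:18270967-18270996, minus strand: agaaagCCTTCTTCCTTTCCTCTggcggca
Rpl22l1, chr3:28805498-28805527, plus strand: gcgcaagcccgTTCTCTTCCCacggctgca
Rpl11, chr4:136053374-136053403, minus strand: ccataaggccacggggccggaagTCTCCCT
Both kinds of gene held such runs: Rps6, Rpl28 and Rps12, which rose, and Rpl15 and Rpl22l1, which fell. Not every gene that rose did: in the window of Rplp0, the largest rise in siSbp2l, the longest run was 7 bases. The run of Rpl11 was 7 bases long where the window ended. A run is a description of these letters and not a mapped start, and RefSeq starts may lie some bases from the start used in these cells.

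These 80 genes were among the most abundant in the cells. Their median mean level over the 14 libraries was 325 FPKM, against 12.5 FPKM for the 11874 genes expressed, and they made up 35 of the 100 genes with the highest mean. Rpl41, Rps9 and Rpl23a had the highest means, at 812, 629 and 623 FPKM. Rpl34, Rpl30 and Rpl7l1 had the lowest, and Rpl34 reached only 3.93 FPKM. The genes were short, with a median exon length of 693.5 bases against 2974 bases over the expressed genes, and their median GC content was 50.9% against 49.5%.

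Read sharing limits these values. Of the 80 genes, 60 have at least 1 pseudogene that carries their name in the GENCODE annotation used here, 292 pseudogenes in all and up to 24 for a single gene. How fragments that match both a gene and its copies were counted is not given in the sources used here, so the level of such a gene is uncertain. Of the 10 genes with a mean under 100 FPKM, 9 had such a pseudogene, and so did 51 of the 70 others. The median number was 2.5 in the 10 and 2 in the 70, so the low genes differed little in this. The 9 were Rpl22, Rpl26, Rpl29, Rpl30, Rpl34, Rpl7l1, Rps15a, Rps18 and Rps27. Several of these differed widely between replicates. Rpl26 was at 33.1 and 4.56 FPKM in the replicates of NC siRNA #1, and Rps27 at 79.4 and 25.01 FPKM in those of NC siRNA #2. Rpl8, Rpl11 and Rpl22l1 had no named pseudogene, Rplp0 and Rplp1 had 1 each, Rpl28 had 4, Rpl15 had 5 and Rps12 had 23. Copies under other names were not counted, so a gene without a named pseudogene may still share reads.

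The libraries held 6560797 to 31621342 fragments, estimated from the steps between low FPKM values, and a count of 3 fragments in a gene with 500 bases of exon is 0.190 to 0.915 FPKM, which covers counting error only. The non-treated libraries stood apart. Their log2 difference had an SD of 0.457 over all genes, against 0.148 to 0.1995 in the other groups, and it ran with GC content (rho = -0.77 across genes, which are not independent). Replicate 2 was lower than replicate 1 for 78 of the 80 ribosomal protein genes, by a median of 0.58 on the log2 scale. Counts in comparisons that use these libraries as controls are therefore also given without them. The targeted genes matched the labels. Secisbp2l was at 3.91 and 3.82 FPKM in siSbp2l and at 135 to 255 FPKM in the control libraries, and Pdgfra was at 3.30 and 2.69 FPKM in siPdgfra and at 32.4 to 72.1 FPKM in the control libraries. OPC markers were expressed in every group, with only Cspg4 under 1 FPKM in siPdgfra, and the 5 endothelial and mural markers summed to 0.222 FPKM at most. The 6 microglial markers summed to 0.525 to 9.46 FPKM, with all but P2ry12 under 1 FPKM in every group, and were highest in NC siRNA #1 (8.80 and 9.46) and siPdgfra (6.60 and 7.61).

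**Figure D1:**
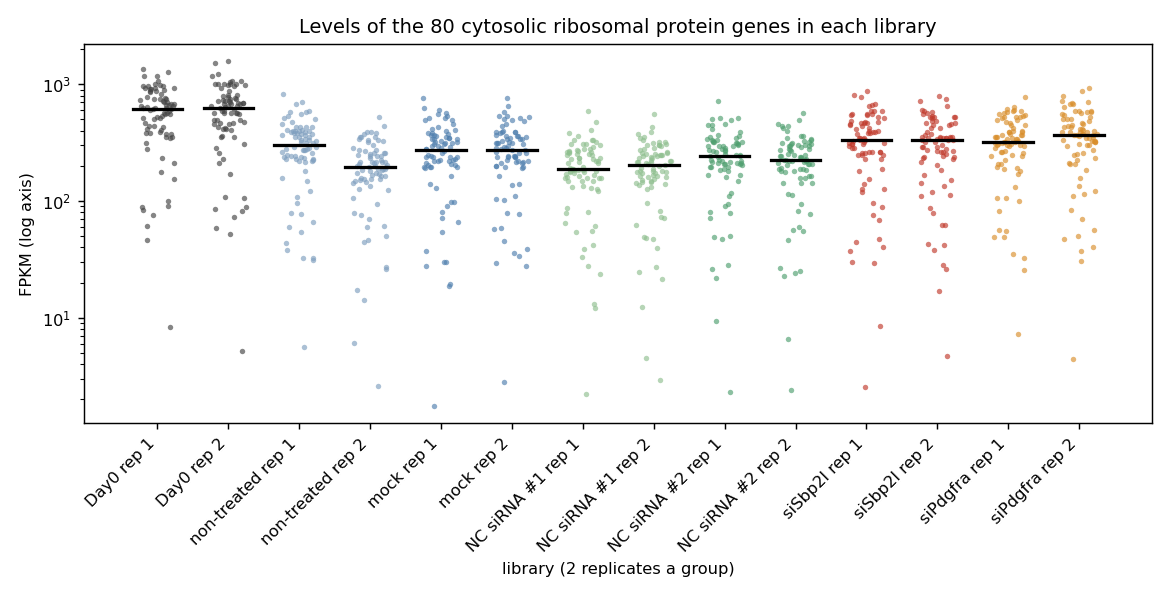
Level of each of the 80 cytosolic ribosomal protein genes (points, FPKM on a log axis) in the 14 libraries, with the median of the 80 as a black line. The medians were 611 and 625 FPKM at Day0 and 188 to 368 FPKM in the 12 Day3 libraries.

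The first question was how ribosomal protein mRNA changed as OPCs became OLs. It fell across the family. The 80 genes took 11.8% and 12.2% of the summed FPKM at Day0, 6.35% and 4.67% in non-treated cells and 6.01% and 6.04% in mock-transfected cells at Day3. Against mock, 75 of the 80 genes fell and none rose past an adjusted p of 0.05 (limma), while 36.6% of all 11874 genes tested fell and 29.7% rose. Against non-treated cells, which share the Day0 libraries, 78 fell and none rose, with 38.6% of all genes lower and 28.4% higher. The median log2 fold change of the 80 genes was -1.17 in mock and -1.28 in non-treated cells, against medians of -0.07 and -0.12 over all genes. At least a 2-fold fall was called for 51 genes in mock, where 14% of all genes met that rule, and for 63 in non-treated cells, where 15.2% did.

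Both Day0 libraries lay above all 12 Day3 libraries for 76 of the 80 genes, against 25.8% of all genes. The exceptions were Rpl34, Rpl39, Rps13 and Rps27. The falls covered both subunits, with a median of -1.08 for the 48 large subunit genes and -1.26 for the 32 small subunit genes in mock.

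Rpl12, a protein at the base of the stalk of the large subunit, fell the most in mock. It was at 779 and 814 FPKM at Day0, 240 and 238 in mock, 272 and 163 in non-treated, 179 and 180 in NC siRNA #1, 211 and 208 in NC siRNA #2, 328 and 304 in siSbp2l and 293 and 347 in siPdgfra. No Day3 library came near the Day0 level. The fall was 1.73 on the log2 scale in mock (SE 0.19, adjusted p = 9.06e-06). Rpl21, another large subunit protein, was at 314 and 356 FPKM at Day0 and 97.5 and 105 in mock, a log2 fold change of -1.72 (SE 0.14, adjusted p = 1.1e-06). Rps4x, the X-linked copy of the small subunit protein S4, was at 867 and 1011 FPKM at Day0 and 309 and 310 in mock, a log2 fold change of -1.60 (SE 0.12, adjusted p = 3.63e-07). All 3 genes were lower in every Day3 library than in either Day0 library.

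The genes with the smallest change in mock were Rps28, Rpl38 and Rpl39, with log2 fold changes of -0.23, -0.32 and -0.47 and adjusted p of 0.558, 0.18 and 0.212 (limma). Each of the 3 fell past the threshold in non-treated cells, where replicate 2 was low. Rps28 was at 741 and 754 FPKM at Day0, 631 and 646 in mock, and 683 and 269 in non-treated cells. The non-treated value thus depended on 1 library. The largest log2 fold changes in non-treated cells were those of Rpl26 (-2.5), Rpl21 (-1.95) and Rpl12 (-1.92). That of Rpl26 rested on the same library, with a level of 32.5 FPKM in replicate 1 and 6.11 in replicate 2, and was -1.38 (adjusted p = 0.265, limma) without replicate 2. Over all 80 genes the median in non-treated cells was -1.58 without replicate 1 and -1.0 without replicate 2.

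The stalk proteins Rplp0, Rplp1 and Rplp2, which recruit the elongation factors, fell with the rest, with log2 fold changes of -1.36, -1.08 and -1.17 in mock. So did Rpsa (-1.54), a small subunit protein named as a laminin receptor, Rps6 (-1.31), the substrate of the S6 kinases, and Rps27a (-1.60), which is made as a fusion with ubiquitin. The 4 markers of dividing cells summed to 546 and 622 FPKM at Day0 and to 28.5 to 33.9 FPKM in non-treated and mock cells, and the 5 OL markers in the table to 392.3 to 435 FPKM at Day0 and to 6284 to 7484 FPKM in non-treated and mock cells. Their part in the fall of the ribosomal protein genes was not tested. In bulk cells, fewer cells of a type and less RNA per cell cannot be told apart.

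**Figure D2:**
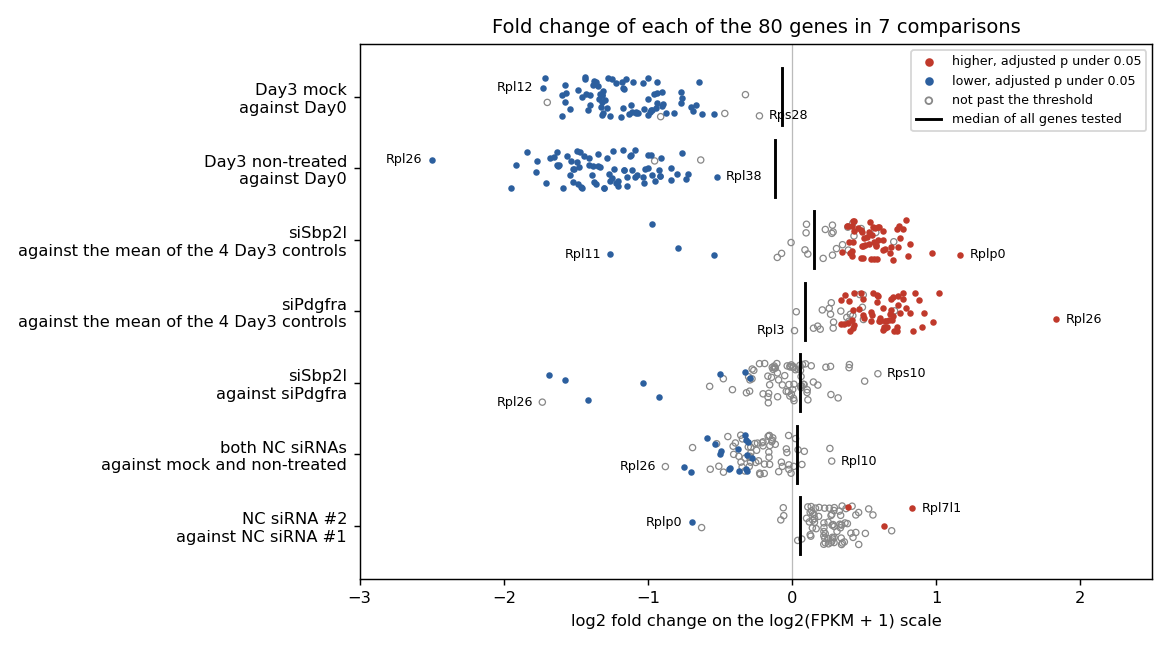
Log2 fold change (on the log2(FPKM + 1) scale) of each of the 80 genes in the 7 comparisons, filled where the adjusted p was under 0.05 (red higher, blue lower), with the median of all genes tested as a black line and the outermost genes named. The 4 genes on the left of siSbp2l against the controls (Rpl11, Rpl8, Rpl15 and Rpl22l1, from -1.26 to -0.54) stand apart from the other 76.

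The second question was what loss of Sbp2l changed at Day3. Against the mean of the 4 Day3 control groups, most ribosomal protein genes were higher in siSbp2l while 4 large subunit genes fell. Of the 80 genes, 54 rose and 4 fell (adjusted p under 0.05, limma), where 35.5% of all 11650 genes rose and 17.9% fell. The median log2 fold change was 0.48 for the 80 genes and 0.15 for all genes. The genes took 7.38% and 7.13% of the summed FPKM in siSbp2l and 4.53% to 6.35% in the 8 control libraries. Both siSbp2l libraries lay above all 8 control libraries for 50 of the 80 genes, against 30.8% of all genes. They lay below all 8 for the same 4 genes that fell, against 13.5% of all genes. Falls were thus rarer among the 80 genes than over all genes. The 4 are described below as single genes, and no result about the family is read from their count.

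A scaling of the libraries to the median ratio over genes moved the median of all genes from 0.15 to 0.00 on the log2 scale. The median of the 80 genes was then 0.32, with 41 higher and 4 lower. The size of the rise also depended on the control group. It passed the threshold for 14 of 80 genes against mock (27.2% of all genes), 32 against non-treated (33.1%), 43 against NC siRNA #2 (25.4%) and 61 against NC siRNA #1 (30.6%). Against mock and non-treated alone the share of ribosomal protein genes called was thus below or close to that of all genes. The lower genes were 4 against each control group, where 15.4% (mock), 16.2% (non-treated), 16.3% (NC siRNA #2) and 16.7% (NC siRNA #1) of all genes were lower. Without the non-treated group, 67 genes rose and 4 fell, with a median of 0.50. No share of all genes is given for that fit, for the scaled fit or for the fits that leave out 1 library. Their counts show only how the calls depend on the fit. Without siSbp2l replicate 1, 16 genes rose and 4 fell, and without its replicate 2, 35 rose and 4 fell.

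Rpl11, which with Rpl5 and the 5S rRNA forms a part of the large subunit that can also bind the p53 regulator Mdm2, fell the most. It lies on the minus strand at chr4:136049948-136053371 (mm10). It was at 667 and 689 FPKM at Day0, 400 and 244 in non-treated, 352 and 339 in mock, 251 and 239 in NC siRNA #1, 286 and 243 in NC siRNA #2, 127 and 113 in siSbp2l and 346 and 434 in siPdgfra. The siSbp2l libraries were the lowest of the 14 and did not overlap with any other group. The log2 fold change against the 4 control groups was -1.26 (SE 0.16, adjusted p = 0.000142), a level 0.417 times that of the controls, and it ran from -1.02 against NC siRNA #1 to -1.52 against mock. Rpl11 was the only one of the 80 genes called at least 2-fold lower, a rule that 4.08% of all genes met. Rpl5 did not move with it: it rose by 0.53 on the log2 scale.

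Rpl8, a protein near the peptidyl transferase centre, lies on the plus strand at chr15:76904071-76906318. It was at 868 and 720 FPKM at Day0, 370 and 215 in non-treated, 316 and 337 in mock, 267 and 286 in NC siRNA #1, 331 and 314 in NC siRNA #2, 154 and 151 in siSbp2l and 469 and 447 in siPdgfra. Again no other library was as low as those of siSbp2l. Its log2 fold change was -0.97 (SE 0.16, adjusted p = 0.000583) against the controls, and between -1.09 and -0.85 against single control groups.

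Rpl15, a protein of the core of the large subunit, lies on the minus strand at chr14:18267823-18270986. It was at 351 and 310 FPKM at Day0, 149.6 and 106 in non-treated, 129.96 and 137 in mock, 128 and 131 in NC siRNA #1, 148 and 143 in NC siRNA #2, 75.2 and 78.5 in siSbp2l and 208 and 206 in siPdgfra. The siSbp2l libraries lay close together and below all others. The log2 fold change was -0.79 (SE 0.11, adjusted p = 0.000236).

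Rpl22l1 is a paralog of Rpl22, a large subunit protein that is not needed for ribosome function in most cells. It was at 155 and 107 FPKM at Day0, 66.1 and 69.7 in non-treated, 65.9 and 58.8 in mock, 55.6 and 48.2 in NC siRNA #1, 50.5 and 56.0 in NC siRNA #2, 37.0 and 42.8 in siSbp2l and 82.2 and 83.2 in siPdgfra. It fell by 0.54 on the log2 scale (SE 0.09, adjusted p = 0.000675), while Rpl22 rose by 0.42 (SE 0.11, adjusted p = 0.00956). The ratio of Rpl22l1 to Rpl22 FPKM was 0.540 and 0.688 in siSbp2l and between 1.03 and 1.70 in the other 12 libraries. The pair thus moved in opposite directions in siSbp2l, and Rpl22l1 was the lower of the pair in those libraries alone.

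**Figure D3:**
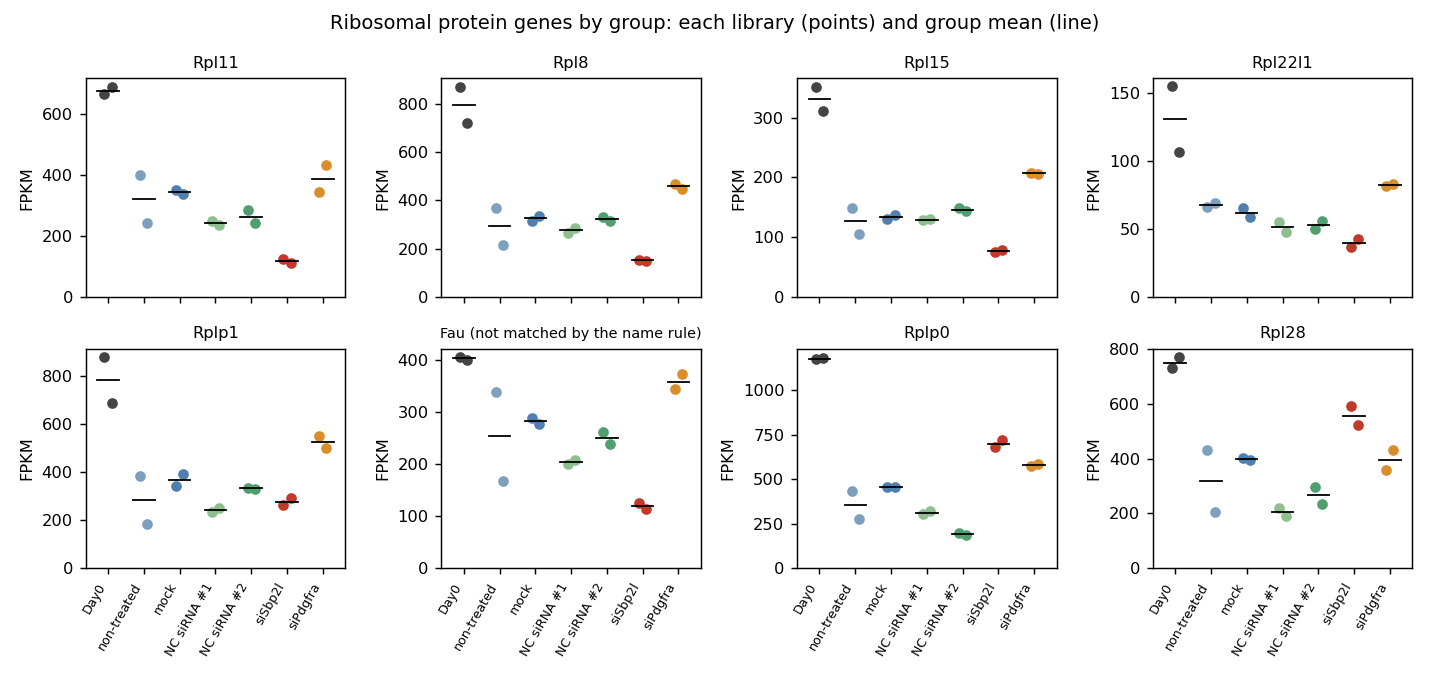
FPKM of 8 ribosomal protein genes in each library (points) and the group means (lines), on axes that start at 0. Rpl11, Rpl8, Rpl15, Rpl22l1 and Fau were lowest in the siSbp2l libraries (Rpl11 at 127 and 113 FPKM), while Rplp0 and Rpl28 were higher there than in any control library.

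In the step from Day0 to Day3 and in siPdgfra the 4 genes moved with the family. At Day3 in mock they fell by 0.97 (Rpl11), 1.28 (Rpl8), 1.30 (Rpl15) and 1.04 (Rpl22l1) on the log2 scale, within the range of the family. In siPdgfra they were higher than in the controls by 0.42, 0.60, 0.63 and 0.49, of which the value for Rpl11 did not pass the threshold (adjusted p = 0.0504, limma). To set the levels free of the shift shared by the family, each gene was divided by the median of the 80 genes in its library. Rpl11 was then at 0.383 and 0.339 of the median gene in siSbp2l and at 1.08 to 1.33 in all other libraries. Rpl8 was at 0.465 and 0.453 in siSbp2l and at 1.10 to 1.46 elsewhere. Rpl15 was at 0.227 and 0.235 in siSbp2l. It was at 0.609 to 0.682 in the NC siRNA libraries and 0.479 to 0.544 in mock and non-treated, so it also shifted against the family between control groups. Among the 80 genes ordered by level, Rpl11 stood at places 66 and 68 in siSbp2l and between places 20 and 35 in the other 12 libraries, and Rpl8 at place 64 in both and between places 15 and 32 elsewhere.

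Rplp1, a stalk protein, was low on that relative scale as well, but did not differ from the controls in FPKM. It was at 879 and 686 FPKM at Day0, 383 and 185 in non-treated, 342 and 393 in mock, 233 and 249.9 in NC siRNA #1, 333 and 332 in NC siRNA #2, 263 and 291 in siSbp2l and 552 and 501 in siPdgfra. The siSbp2l libraries lay inside the range of the controls (log2 fold change -0.10, adjusted p = 0.695, limma). Relative to the median gene it was at 0.795 and 0.870 in siSbp2l and at 0.946 to 1.72 in the other 12 libraries. Its partner Rplp2 rose by 0.74 (SE 0.18, adjusted p = 0.00666).

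Rplp0, the scaffold of the stalk, showed the largest rise in siSbp2l. It was at 1174 and 1182 FPKM at Day0, 431 and 276 in non-treated, 456 and 458 in mock, 302 and 318 in NC siRNA #1, 195 and 187 in NC siRNA #2, 681 and 718 in siSbp2l and 573 and 588 in siPdgfra. The siSbp2l libraries were the highest at Day3 and still below Day0. The log2 fold change was 1.17 (SE 0.14, adjusted p = 7.06e-05), and Rplp0 was the only one of the 80 genes called at least 2-fold higher, a rule that 3.12% of all genes met. Its size depended on the control group, from 0.61 against mock to 1.87 against NC siRNA #2, in which Rplp0 itself was low. Rpl28 rose by 0.97 (SE 0.23, adjusted p = 0.00487) and Rps12 by 0.82 (SE 0.13, adjusted p = 0.000568). Rpl28 was at 590 and 523 FPKM in siSbp2l and 404 and 396 in mock, and against mock alone the difference was 0.47 with an adjusted p of 0.207 (limma), and without siSbp2l replicate 1 the adjusted p was 0.0618.

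The subunits are given side by side, where 35.5% of all genes rose and 17.9% fell in siSbp2l. Of the 32 small subunit genes 27 rose and none fell, with values from 0.28 to 0.82 and a median of 0.54. Of the 48 large subunit genes 27 rose and 4 fell, with a median of 0.42. In siPdgfra the medians were 0.63 for the small and 0.50 for the large subunit genes, a gap of about the same size. The summed FPKM of the large subunit genes was 1.34 and 1.35 times that of the small subunit genes in siSbp2l, 1.42 and 1.48 times in siPdgfra, and 1.5 to 1.61 times in the other 10 libraries. Leaving out the 4 genes that fell, a step chosen after their values were seen, gave 1.31 and 1.32 in siSbp2l, 1.31 and 1.38 in siPdgfra and 1.40 to 1.5 in the others. These ratios are given as a description and no test was made of them. Fau, a small subunit gene that the name rule misses and that fell in siSbp2l, is in neither the counts nor the ratios.

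Ribosomal genes that the name rule misses also held genes of both directions. In siSbp2l, Gnb2l1 (the scaffold protein now called Rack1) rose by 0.69 and Rpl36al by 0.58. Fau, which encodes the small subunit protein S30 fused to a ubiquitin-like protein, fell by 1.02 on the log2 scale (SE 0.20, adjusted p = 0.00176). It was at 405 and 399 FPKM at Day0, 338 and 166 in non-treated, 287 and 276 in mock, 199 and 208 in NC siRNA #1, 261 and 238 in NC siRNA #2, 124 and 113 in siSbp2l and 343 and 372 in siPdgfra. As with Rpl11, the siSbp2l libraries lay below all others.

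**Figure D4:**
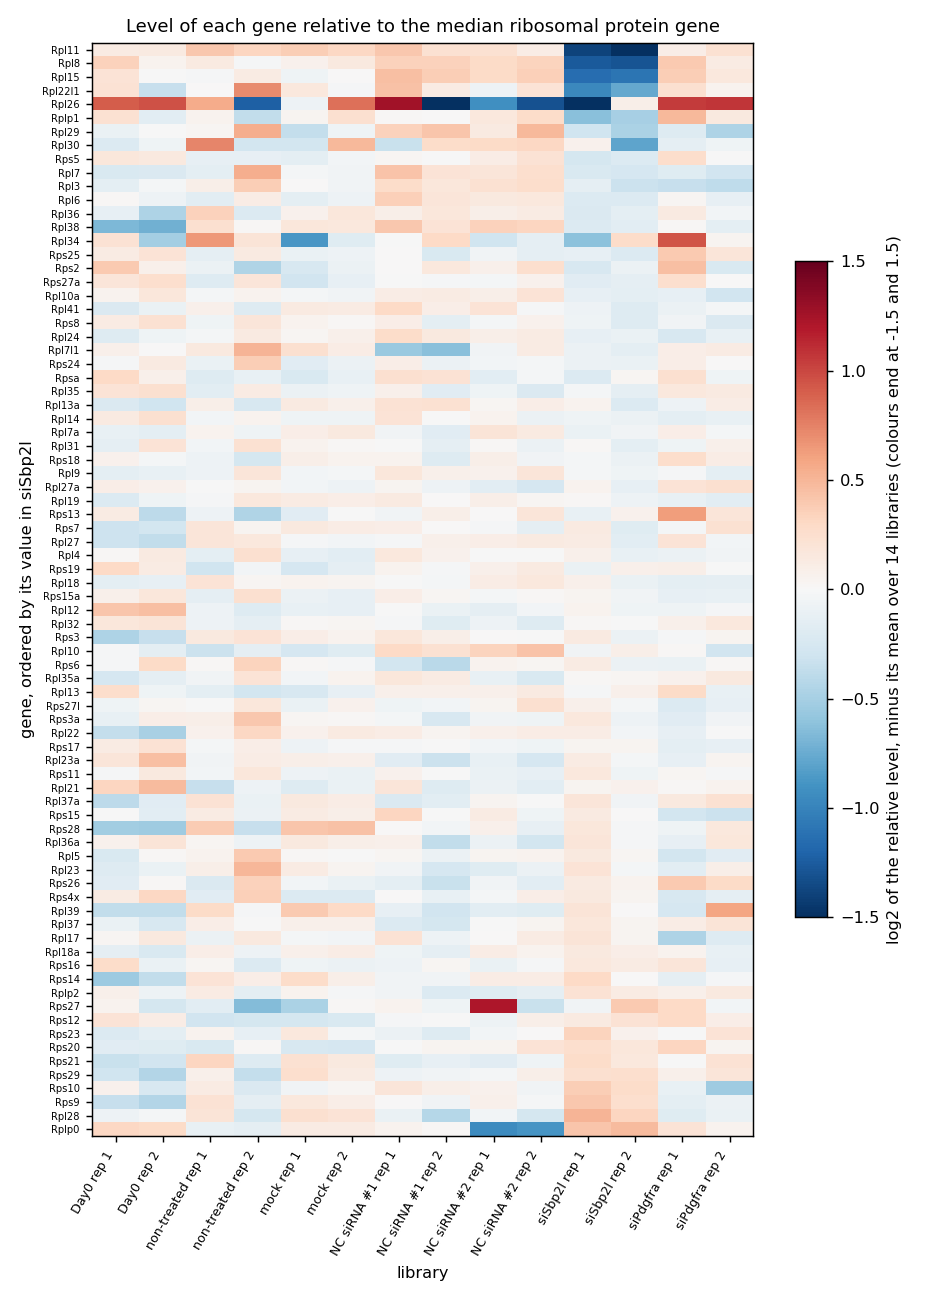
Level of each of the 80 genes divided by the median of the 80 in its library (log2, minus the gene's mean over the 14 libraries; colours end at -1.5 and 1.5), with genes ordered by their value in siSbp2l. Rpl11, Rpl8, Rpl15 and Rpl22l1 form the dark block of siSbp2l at the top, Rplp0 is low in both libraries of NC siRNA #2, and Rpl26 and Rpl34 vary between replicates.

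In siPdgfra the family rose as well, with no gene lower. Pdgfra is the receptor through which PDGF-AA keeps OPCs dividing. Against the 4 control groups 59 of the 80 genes rose and none fell (limma), where 32.4% of all genes rose and 23.0% fell, with a median of 0.56 against 0.09 for all genes. Both siPdgfra libraries lay above all 8 controls for 44 genes, against 26.5% of all genes, and below them for none, against 17.5% of all genes. The count against single controls was 24 in mock (24.5% of all genes), 36 in non-treated (30.7%), 47 in NC siRNA #2 (24.9%) and 67 in NC siRNA #1 (26.9%). Against mock alone the share called was thus only slightly above that of all genes, and the median was 0.31, against 0.08 for all genes. With the exon length trend subtracted the median against the 4 control groups was 0.42, against 0.08 for all genes. With GC and length trends subtracted it was 0.41, against 0.09. Without the non-treated group, 73 genes rose and none fell, with a median of 0.60. No share of all genes is given for that fit, so its count shows only how the calls depend on the fit. The median was 0.44 without siPdgfra replicate 2 and 0.60 without its replicate 1.

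Rps13, a small subunit protein, and Rpl26 were called at least 2-fold higher in siPdgfra, a rule that 3.97% of all genes met. Rps13 was at 662 and 477 FPKM at Day0, 286 and 142 in non-treated, 240.4 and 272 in mock, 181 and 215 in NC siRNA #1, 244 and 253 in NC siRNA #2, 306 and 348 in siSbp2l and 496 and 417 in siPdgfra. The log2 fold change was 1.02 (SE 0.21, adjusted p = 0.0022). For Rpl26 it was 1.83 with an SE of 0.70 and an adjusted p of 0.0464, and its control libraries ran from 4.56 to 35.5 FPKM. The call on Rpl26 was lost under 17 of 27 alternatives. Rps26, a small subunit protein at the mRNA exit, rose by 0.98 (SE 0.09, adjusted p = 8.91e-06), from 245 to 401 FPKM in the control libraries to 640 and 680 FPKM in siPdgfra.

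The difference between the targeted siRNAs was tested directly. Of the 80 genes 8 were lower in siSbp2l than in siPdgfra and none higher (limma), where 23.4% of all genes were lower and 28.5% higher. The 8 were Rpl11 (-1.68), Rpl8 (-1.58), Rpl15 (-1.42), Rpl22l1 (-1.04), Rplp1 (-0.92), Rps25 (-0.50), Rps27a (-0.33) and Rps26 (-0.29). The first 4 were at least 2-fold lower, a rule that 6.73% of all genes met, and had adjusted p of 9.78e-05, 0.000116, 2.28e-05 and 4.45e-05. Rplp1 had an adjusted p of 0.0135. Calls under either rule were thus rarer among the 80 genes than over all genes. The genes are described singly, and no result about the family is read from their count. The median difference over the 80 genes was -0.04, against 0.06 for all genes. Without the non-treated group, 19 genes were lower and 8 higher, with the median still at -0.04. No share of all genes is given for that fit, so its counts show only that the calls depend on that group.

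Markers of the cells differed beside these results. The OL markers summed to 1592 to 1777 FPKM in siSbp2l, 4082 to 4727 in siPdgfra and 4612 to 8595 in the control groups. The dividing-cell markers summed to 3.67 to 4.08 FPKM in siSbp2l, 25.5 to 28.3 in siPdgfra and 3.01 to 33.9 in the controls, so that siSbp2l was as low as NC siRNA #1, where 3 of the 4 (Ccnb1, Cdk1 and Mki67) were under 1 FPKM in both. OPC markers summed to 1140 to 1171 FPKM in siSbp2l, inside the range of the controls of 923 to 1367 FPKM, although Pdgfra itself was at 149.9 and 144.4 FPKM in siSbp2l, above all 8 control libraries. The astrocyte markers summed to 37.7 to 38.1 FPKM in siPdgfra, 101 to 108 in siSbp2l and 82.8 to 145 in the controls. Aqp4 and Gja1 had means under 1 FPKM in every Day3 group. The neuron markers summed to 199 to 201 FPKM in siSbp2l, 236 to 239.9 in siPdgfra, 269 to 276 in NC siRNA #1 and 47.8 to 127 in the other controls. Snap25 and Stmn2 had means under 1 FPKM in every Day3 group, and Rbfox3 in all of them but siSbp2l. Syt1 was also under 1 FPKM in non-treated, mock and NC siRNA #2, so the sum there was almost all Tubb3. These sums are therefore not read as neurons in the cultures. The part of these shifts in the levels of the ribosomal protein genes was not tested.

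The control groups were not alike. Ribosomal protein genes took 4.57% and 4.53% of the summed FPKM in NC siRNA #1 and 5.44% and 5.03% in NC siRNA #2, against 4.67% to 6.35% in the groups without siRNA. With both non-targeting siRNAs set against mock and non-treated cells, 17 of the 80 genes fell and none rose, where 11.8% of all genes fell and 16.3% rose, with a median of -0.28 against 0.03. The count depended on the non-treated group: it was 58 lower and 1 higher without that group, 24 lower and 6 higher without its replicate 1 alone, and 66 lower and 1 higher without its replicate 2 alone. The median was -0.33, -0.11 and -0.41 in these 3 fits. No share of all genes is given for them, so the counts show only that the calls depend on that group. In the fit of all 12 Day3 libraries the median was -0.118 with the exon length trend subtracted, against 0.029 for all genes. With GC and length trends subtracted it was -0.099, against 0.037.

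Among the genes called, Rpl7l1 had the largest fall in that contrast (-0.75, SE 0.08, adjusted p = 0.000128). It is a Rpl7-like protein with a role in ribosome assembly. It was at 12.03 and 12.4 FPKM in NC siRNA #1, 22.1 and 22.9 in NC siRNA #2, 31.3 and 26.1 in non-treated, 30.02 and 27.5 in mock, 29.3 and 28.4 in siSbp2l, 32.3 and 37.6 in siPdgfra and 60.5 and 58.8 at Day0. Rplp0 (-0.70) and Rpl23 (-0.59) followed. Rpl26 had a lower value (-0.88) that did not pass the threshold (adjusted p = 0.322, limma).

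Between the non-targeting siRNAs themselves, 3 of the 80 genes were higher in NC siRNA #2 and 1 lower (limma), where 10.8% of all genes were higher and 10.1% lower. The median of the 80 was 0.27 against 0.06 for all genes. With the exon length trend subtracted it was 0.085, against 0.045 for all genes. With GC and length trends subtracted it was 0.083, against 0.043. The 80 genes are short and were among the genes on which the trends were fitted. The subtraction therefore cannot separate a trend with length from a shift of the family, and the cause was not tested. Rpl7l1 (0.83, SE 0.11, adjusted p = 0.000553), Rps6 (0.64, SE 0.14, adjusted p = 0.0109) and Rps26 (0.39, SE 0.11, adjusted p = 0.0295) were higher. Rplp0 was lower (-0.70, SE 0.17, adjusted p = 0.0167), at 195 and 187 FPKM against 302 and 318. Relative to the median gene of its library, Rplp0 was at 0.800 and 0.834 in NC siRNA #2 and at 1.41 or more in the other 12 libraries. Rps26 lost its call in 10 of 23 alternatives. Without the non-treated group, 43 genes were higher and 1 lower, with the median still at 0.27. No share of all genes is given for that fit. In the fit of all 12 Day3 libraries, calls between the non-targeting siRNAs were rarer among the 80 genes than over all genes. No result about the family is read from them. Rplp0 in NC siRNA #2 differed from all other groups by more than the replicates did.

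Among the other paralogs and partners, Rpl7 was between 434 and 561 FPKM in all 12 Day3 libraries, with log2 fold changes of 0.10 in siSbp2l and 0.15 in siPdgfra, neither past the threshold. Rps27l, a p53-inducible paralog of Rps27, was at 64.9 to 126 FPKM in the Day3 libraries and rose by 0.49 in siSbp2l and 0.34 in siPdgfra. Rps27 was too variable between replicates for its values of 0.71 in each to pass. Of the partners of the genes listed near 0, Rpl10 rose in both (0.48 and 0.37) and Rpl3 in neither (0.11 and 0.02). Rpl39 rose past the threshold in siPdgfra (0.70, adjusted p = 0.0441), at 423 and 870 FPKM in its replicates, and not in siSbp2l (0.58, adjusted p = 0.0858).

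Genes known to share the 5′ TOP start were counted in the same way, beside the 36.6% of all genes that fell in mock and the 35.5% and 32.4% that rose in siSbp2l and siPdgfra. Of 16 such translation factors, 15 fell at Day3 in mock, 12 rose and 1 fell in siSbp2l, and 10 rose in siPdgfra, with medians of -1.12, 0.41 and 0.35. Eef1a1, the elongation factor that delivers aminoacyl-tRNA, rose by 0.73 in siSbp2l and 0.66 in siPdgfra. Pabpc1, the poly(A)-binding protein, rose by 0.90 in siSbp2l and had a log2 fold change of 0.04 in siPdgfra (adjusted p = 0.675, limma). The one that fell in siSbp2l was Nap1l1, a histone chaperone (-0.43). All 6 small nucleolar RNA host genes of the same class fell in mock and rose in siSbp2l, and 5 rose in siPdgfra.

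Of 16 genes that act on ribosomal protein mRNA or ribosome production, 8 fell and 2 rose at Day3 in mock, 7 rose and 1 fell in siSbp2l, and 9 rose and 3 fell in siPdgfra. Of all genes, 36.6% fell and 29.7% rose in mock, 35.5% rose and 17.9% fell in siSbp2l, and 32.4% rose and 23.0% fell in siPdgfra, so that nothing is read from the counts of this list. Larp1, which binds 5′ TOP mRNAs, was at 46.6 and 45.2 FPKM at Day0, 14.7 to 21.5 in the 8 control libraries, 37.5 and 38.0 in siSbp2l and 38.8 and 37.7 in siPdgfra. It rose by 0.95 in siSbp2l and 0.97 in siPdgfra. Myc, a transcription factor that drives ribosome production, rose by 1.18 in siSbp2l and 0.64 in siPdgfra. Its controls were not alike: it was at 22.9 and 25.9 FPKM in mock, 24.8 and 16.3 in non-treated, 9.45 and 10.02 in NC siRNA #1 and 21.1 and 19.4 in NC siRNA #2. In siPdgfra it was at 28.5 and 27.5 FPKM, near mock, and in siSbp2l at 41.9 and 41.0. Mycn, its relative, rose by 2.10 in siPdgfra, with a value of 0.17 in siSbp2l (adjusted p = 0.172, limma). Rps6kb1, which encodes S6 kinase, fell by 0.37 in siSbp2l and 1.15 in siPdgfra.

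Mitochondrial ribosomal proteins, which are encoded by a separate set of nuclear genes, are given beside the family. Of 76 tested, 42 fell at Day3 in mock with a median of -0.51, where 36.6% of all genes fell. In siSbp2l 16 rose and 3 fell with a median of 0.06, below that of all genes (0.15), and 35.5% of all genes rose. In siPdgfra 40 rose and 3 fell with a median of 0.33, where 32.4% of all genes rose. They were lower in siSbp2l than in siPdgfra for 26 genes and higher for 5, where 23.4% of all genes were lower and 28.5% higher, and their median of -0.21 lay further from 0 than that of the 80 cytosolic genes (-0.04).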

How the data were processed

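Stranded mRNA-seq libraries (14, in 7 groups) were processed by the authors with OmicSoft ArrayStudio on the mm10 refGene model. The aligner and the counting settings are not given in the sources used here. The authors deposited a table of FPKM values, which its name calls counts, and a second table with gene positions and exon lengths. Its fold changes and p-values for siSbp2l against each control, made with DESeq2, were not used.

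Genes at 1 FPKM or more in at least 2 of the libraries fitted were tested on log2(FPKM + 1) with limma (3.58.1, R 4.3.3). This scale understates changes of low genes. Moderation was robust with an intensity trend. The 12 Day3 libraries were fitted together (11650 genes, 6 residual degrees of freedom), and all 14 for the Day0 contrasts. Tests were two-sided, with Benjamini-Hochberg adjustment over all genes tested, and called at an adjusted p under 0.05. A 2-fold call also needed a 2-fold change. The script was tested on simulated data. Depth was estimated from low values, of which 88.8% to 92.5% were whole fragments within 0.1. Columns were matched to groups by name, 1 of them misspelled. Named genes were the stalk genes, Rpsa, Rps6, Rps27a, the paralogs and their partners, the 3 largest rises and falls called in each comparison, the genes past 2-fold and the 3 highest and lowest. Rpl5, Rps28, Rpl38 and the relative levels were singled out after their values were seen. One listed gene outside the members is not reported here. The members and gene lists were chosen with earlier results of these data known. Alternatives were other scalings, pseudocounts, filters, a replicate block, leaving out libraries, single controls and length trends. The removal of GC with length trends and of the non-treated group were added after seeing the data.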

Additional observations from a re-analysis of the deposited data

How the results depend on the processing

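The falls of Rpl8, Rpl11 and Rpl15 in siSbp2l passed the threshold in all 27 alternatives run. Counts of the 80 genes past the threshold moved by over 1.5 times as follows, with no share of all genes given beyond those for single controls above. For siSbp2l against the controls (58) the count was 18 against mock alone and 36 against non-treated alone. For siPdgfra (59) it was 24 and 36. For siSbp2l against siPdgfra (8) it was 14 with median-ratio scaling, 19 with only the groups compared, 17 with the length trend subtracted, 17 with GC and length trends subtracted and 27 without the non-treated group. The median of that contrast turned from -0.04 to 0.0539 with the length trend, 0.0586 with both trends and 0.0415 without siPdgfra replicate 2 (-0.1451 without its replicate 1), so no direction is read from it. For the NC siRNAs against mock and non-treated (17) it was 34 with median-ratio scaling, 35 with upper-quartile scaling and 59 without the non-treated group. For NC siRNA #2 against NC siRNA #1 (4) it was 53 with only the groups compared and 44 without the non-treated group.

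Leaving out 1 library at a time gave 66 to 77 genes for mock against Day0, 72 to 80 for non-treated against Day0, 20 to 73 for siSbp2l, 28 to 75 for siPdgfra, 5 to 27 for siSbp2l against siPdgfra, 7 to 67 for the NC siRNAs against mock and non-treated and 1 to 44 for NC siRNA #2 against NC siRNA #1. The fits furthest from the whole were those without siSbp2l replicate 1 (20), siPdgfra replicate 2 (28), a non-treated library (27, 67 and 44), either siSbp2l library or siPdgfra replicate 1 (5), mock replicate 1, NC siRNA #1 replicate 2 or NC siRNA #2 replicate 2 (7), and either NC siRNA #1 library or NC siRNA #2 replicate 1 (1). A lone library was then assumed to vary like the other groups. The causes of these shifts were not tested. Rplp0 in NC siRNA #2 against NC siRNA #1 lost its call in 4 of 23 alternatives (highest adjusted p = 0.106, limma), each without a library of these groups.

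The replicate numbers were not shown to pair the libraries: the deviations correlated over 0.1 in 4 of 21 pairs of groups, with a median of 0.02. A fit with a replicate block gave 57 genes for siSbp2l, 58 for siPdgfra, 7 for siSbp2l against siPdgfra, 15 for the NC siRNAs against mock and non-treated, 4 between the NC siRNAs, 74 for mock and 78 for non-treated against Day0.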
